A study of Rattus norvegicus with 6 samples.

Results

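The ADAM and ADAMTS genes encode zinc-dependent proteases that work at the cell surface and in the extracellular matrix, and the related ADAMTSL genes encode matrix proteins of similar build. Members were taken from the deposited gene table by symbol, namely every gene called Adam, Adamts or Adamtsl followed by a number. This gave 36 of the 22085 genes of the table, 14 of them ADAM, 17 ADAMTS and 5 ADAMTSL. RNA had been sequenced from rat cells grown out of amniotic fluid taken on embryonic day 18.5 and harvested at passage 4, with 3 libraries from control pregnancies and 3 from a preeclampsia model, a disorder with maternal hypertension. All cultures were kept in the same serum-containing DMEM/F12 medium. The rat strain, the way the model was induced and the number of fetuses per library are not given in the sources used here, so each p-value measures the spread between these libraries. The preeclampsia libraries thus stand for cells cultured away from the mother, not for amniotic fluid itself.

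ADAM proteins are mostly anchored in the cell membrane, where those with an active zinc site shed growth factors, cytokine receptors and adhesion proteins from the surface. ADAM17 releases ligands of the epidermal growth factor receptor and tumour necrosis factor, and ADAM10 makes the first cut of activated Notch. ADAMTS proteases are secreted and hold thrombospondin repeats. One branch cuts the large proteoglycans versican and aggrecan, another removes the amino-terminal propeptide of fibrillar procollagens, and others act around fibrillin microfibrils. ADAMTSL proteins keep the thrombospondin repeats but lack the protease domain. Proteins of the TIMP family inhibit many of these enzymes.

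Library totals lay between 48402185 and 59193961 counts, and the 36 genes held between 0.345% and 0.497% of them. Levels are given as FPKM, the authors' fragments scaled to transcript length and library size, which allows genes of different length to be set side by side. The 10 mesenchymal markers, such as Thy1, Vim and Cxcl12, summed to between 5022 and 8487 FPKM. The 6 epithelial markers analysed summed to at most 55.9 FPKM, and the 4 endothelial markers analysed to at most 3.71 FPKM. The 14 macrophage markers summed to 149, 123 and 22.6 FPKM in controls 1 to 3, and in preeclampsia libraries 1 to 3 they summed to 27.0, 435 and 211 FPKM. Control library 3 and preeclampsia library 1 therefore stood apart from the other 4 in these markers. In bulk RNA, fewer cells of a type and less RNA per cell cannot be told apart.

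All 36 genes had a count in at least 1 library, and 30 had one in all 6. A few genes carried most of the signal: 3 had a mean over 100 FPKM, 12 lay between 10 and 100, 10 between 1 and 10, and 11 below 1. The ADAM sum was made up for 73.9% to 82.9% by Adam19 and Adam12. Adamts1 alone made up 51.9% to 73.6% of the ADAMTS sum, and Adamtsl4 and Adamtsl1 together 93.6% to 96.9% of the ADAMTSL sum. The 3 leading genes, Adam19, Adam12 and Adamts1, had higher means than 98.9%, 98.7% and 98.3% of the genes of the table.

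**Figure D1:**
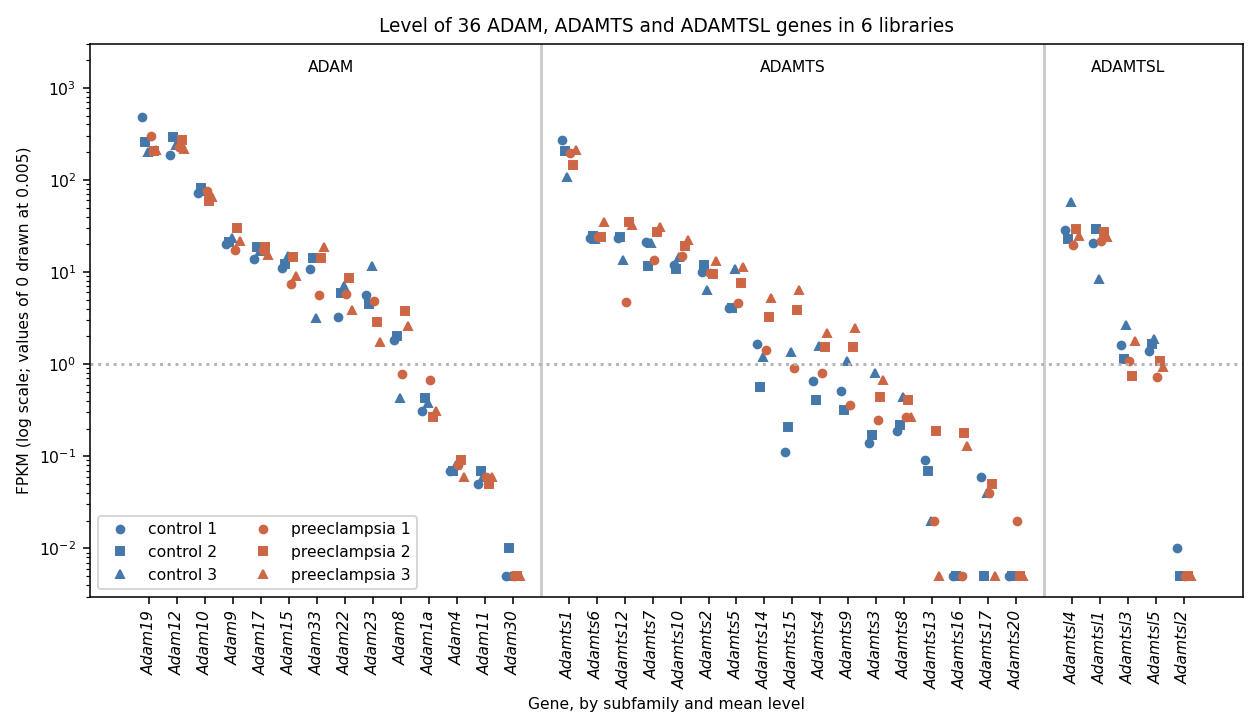
FPKM (log axis) of each of the 36 genes in the 6 libraries, with controls in blue and preeclampsia in orange, genes ordered by mean within each subfamily and the dotted line at 1 FPKM. Adam19, Adam12 and Adamts1 lie above 100 in every library, and 11 genes have a mean below 1.

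No member was called between preeclampsia and control. By edgeR's quasi-likelihood test with Benjamini-Hochberg adjustment over 15776 genes, 32 members were tested and 0 passed an adjusted p of 0.05, the lowest adjusted p being 0.458 for Adamtsl5. That is also the background, with 0% of all genes called. At an unadjusted p under 0.05 there were 5 members of 32, or 15.6%, against 9.19% of all genes. DESeq2 called 0 of the 33 members to which it gave an adjusted p, against 1.71% of all genes, its lowest being 0.0891 for Adamts15. Limma on log2 FPKM called 0 members under each of the 4 settings run, and at most 1 of all genes. The 4 members that did not pass the filter on low counts were Adam30, Adamts16, Adamts20 and Adamtsl2.

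The 5 members at an unadjusted p under 0.05 were Adamts10, Adamts14 and Adamts15, with higher means in the preeclampsia group, and Adam23 and Adamtsl5, with lower means. The 3 higher members were 9.38% of those tested, against 4.13% of all genes, and the 2 lower ones 6.25%, against 5.06%. The number of higher members rested on single libraries, being 0 without control library 2, without preeclampsia library 2 and without preeclampsia library 3, where 2.81%, 2.52% and 2.76% of all genes were higher at that threshold. Without preeclampsia library 1 it was 7, Adamts16 included, or 6 of the 32 members tested with all libraries, against 6.19% of all genes. The number of lower members was 1 on leaving out control library 1, control library 3 or preeclampsia library 3, against 3.39%, 4.49% and 3.86% of all genes. In 2 of the 32 members, Adamts10 and Adamtsl5, the FPKM values of the groups did not overlap, or 6.25% against 14.5% of all genes.

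By subfamily, 13 of the 15 tested ADAMTS genes had a positive log2 fold change, against 8151 of all 15776 genes tested. The positive fold changes of Adamts2, Adamts3, Adamts5, Adamts8, Adamts12 and Adamts13 were smaller than their SE, the other positive ones larger. Several of these genes share a library pattern, so their signs are not independent. The 15 genes had a median of 0.36, while the median over all genes tested was 0.01. The ADAMTS median was 0.63, 0.70 and 0.71 when control library 1, control library 3 and preeclampsia library 1 were left out in turn, 0.87 with the last 2 left out together, and 0.19 by limma with no filter. Over the 15 genes tested with all libraries, that is without Adamts16, the first 4 of these medians were 0.63, 0.66, 0.66 and 0.84. Of the 13 tested ADAM genes 8 were positive, with a median of 0.04. Of the 4 tested ADAMTSL genes 1 was positive, with a median of -0.54, which was -0.12 without control library 3. These medians are descriptions, and the ADAMTS genes did not have a higher sum in the preeclampsia group beyond the spread. Summed FPKM of the 17 ADAMTS genes was 290 ± 83.8 for the controls and 309 ± 57.8 for the preeclampsia libraries (SD, n = 3 each). An exact two-sided permutation test gave p = 0.90. Adamts1 made up 51.9% to 73.6% of this sum, so the test mostly describes that gene. Without Adamts1 the sums were 94.0 ± 4.52 and 124 ± 44.4 FPKM (exact p = 0.40). The ADAM sum was 704 ± 110 and 621 ± 50.7 FPKM (exact p = 0.30), and the ADAMTSL sum 59.0 ± 9.67 and 50.9 ± 7.71 FPKM (exact p = 0.40). With 3 libraries against 3 this test cannot go below 0.1.

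**Figure D2:**
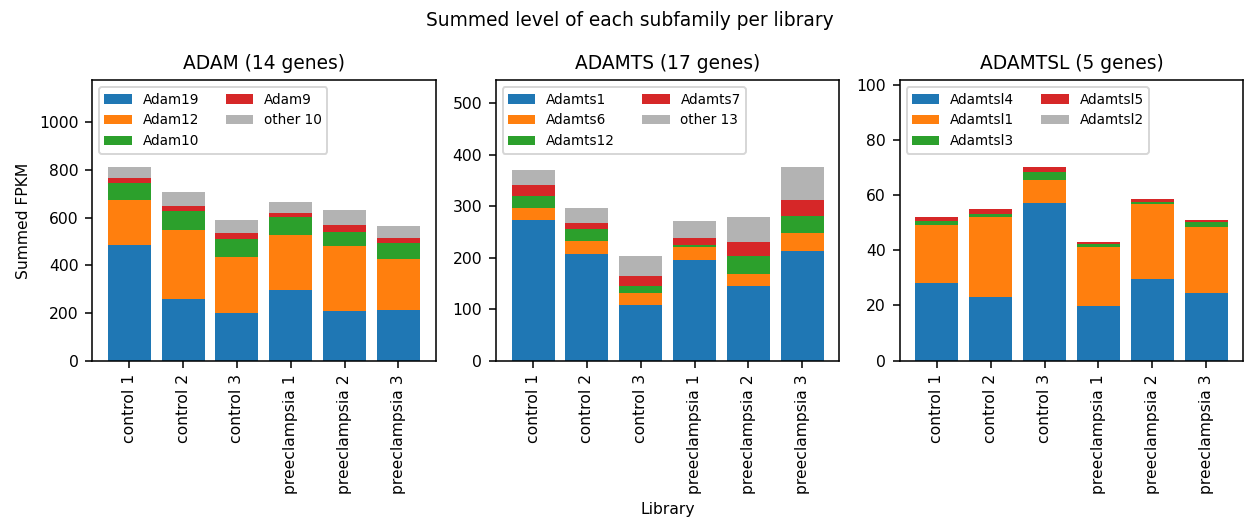
Stacked bars of summed FPKM per library for the ADAM, ADAMTS and ADAMTSL genes, with the 4 highest genes of each subfamily in colour and the rest in grey. The ADAM sum is carried by Adam19 and Adam12 and the ADAMTS sum by Adamts1, which is lowest in control library 3.

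**Figure D3:**
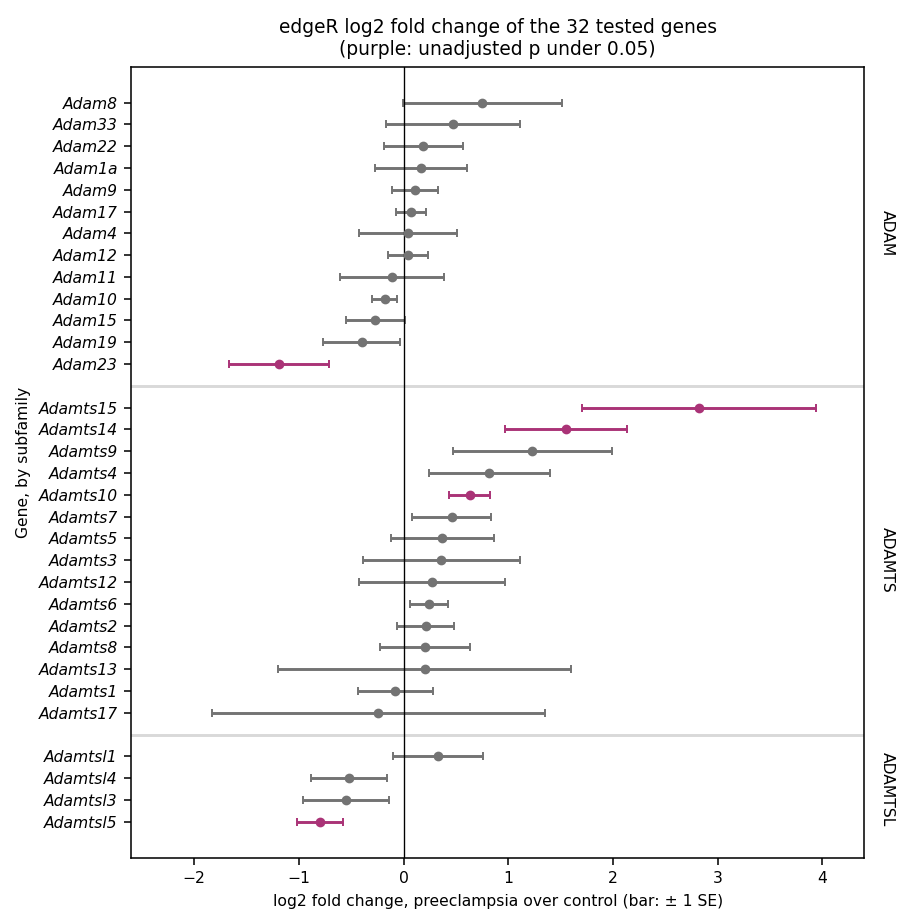
Log2 fold change of preeclampsia over control by edgeR for the 32 tested genes, with bars of 1 SE and purple for an unadjusted p under 0.05. Most ADAMTS genes lie to the right of 0, and the widest bars belong to genes with few counts, such as Adamts17 and Adamts13.

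Among the ADAMs with an active zinc site, Adam19 and Adam12 encode meltrins, which act in muscle, heart and connective tissue. Adam19 stood at 486, 258 and 199 FPKM in controls 1 to 3, against 297, 209 and 211 FPKM in preeclampsia libraries 1 to 3. Control library 1 was far above the rest and the groups overlapped, with a log2 fold change of -0.40 (SE 0.37) and an adjusted p of 0.815. Without that library the log2 fold change was 0.11. The sum of the 5 smooth muscle markers was also highest there, at 2219 FPKM against 597 to 1274 FPKM in the other libraries. Their member Actg2 was at 45.1 FPKM in control library 1 and at 101 FPKM in control library 2. The next highest sum, 1274 FPKM, was that of control library 3, where Adam19 was lowest. The part of these markers in the level of Adam19 was not tested. Adam12 was at 188, 289 and 237 FPKM in the controls and at 230, 273 and 216 FPKM in the preeclampsia libraries. Its groups lay within the same range, with a log2 fold change of 0.04 (SE 0.19).

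The sheddase genes Adam10 and Adam17 varied little. Adam10 measured 71.4, 80.7 and 75.9 FPKM in the controls, and 76.5, 58.3 and 64.5 FPKM in the preeclampsia libraries. Its highest value was 1.38 times its lowest, the groups overlapped through preeclampsia library 1, and the log2 fold change was -0.18 (SE 0.12) with an adjusted p of 0.718. Adam17 ran from 14.0 to 18.8 FPKM, or 1.34 times from lowest to highest, with a log2 fold change of 0.07 (SE 0.14). Adam9, which encodes meltrin gamma, was at 19.9, 21.4 and 23.7 FPKM in the controls and at 17.4, 29.8 and 21.6 FPKM in the preeclampsia libraries. Preeclampsia libraries 1 and 2 marked its lowest and highest values, on either side of all controls. Adam15, a protease with an integrin-binding disintegrin domain, was at 12.8 ± 2.10 and 10.3 ± 3.75 FPKM (SD, n = 3 each).

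Adam8 and Adam33 differed more between libraries than between groups. Adam8, known from leukocytes, was at 1.85, 2.02 and 0.43 FPKM in the controls and at 0.78, 3.73 and 2.62 FPKM in the preeclampsia libraries. Adam33, known from mesenchymal cells of the airway, was at 10.9, 14.2 and 3.20 FPKM and at 5.63, 14.4 and 18.5 FPKM. Both genes were lowest in control library 3 and preeclampsia library 1, the libraries with the least macrophage marker RNA. Adamts12, the gene of a secreted protease that can cut cartilage oligomeric matrix protein, had the same pair at the bottom. It was at 23.5, 24.0 and 13.4 FPKM in the controls and at 4.73, 34.7 and 32.5 FPKM in the preeclampsia libraries. These 3 genes were 9.38% of the tested members, and 6.01% of all tested genes had the same lowest pair. The defining macrophage markers Csf1r and Cd68 ran from 1.06 and 1.43 FPKM in control library 3 to 18.8 and 25.1 FPKM in preeclampsia library 2, C1qa was listed at 0 in control library 3, and the part of macrophages in these levels was not tested.

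The ADAMs without a zinc site, Adam11, Adam22 and Adam23, encode neuronal adhesion proteins, and ADAM22 and ADAM23 bind the secreted synaptic protein LGI1. Adam23 was at 5.59, 4.46 and 11.6 FPKM in the controls and at 4.79, 2.88 and 1.72 FPKM in the preeclampsia libraries. Control library 3 stood high and preeclampsia libraries 2 and 3 stood low, while preeclampsia library 1 lay between control libraries 1 and 2. The log2 fold change was -1.19 (SE 0.48), with an unadjusted p of 0.047 and an adjusted p of 0.534 by edgeR. It was -0.69 without control library 3. Adam22 was at 5.46 ± 1.96 and 6.07 ± 2.36 FPKM, and Adam11 did not exceed 0.07 FPKM. The germ cell genes Adam1a, Adam4 and Adam30 had means of 0.397, 0.0750 and 0.00167 FPKM, and Adam30 had 2 counts in all, both in control library 2.

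The ADAMTS proteoglycanases, which cut versican and aggrecan, were led by Adamts1. Adamts1, a gene needed for normal ovulation in mice, stood at 273, 207 and 108 FPKM in the controls, against 196, 145 and 213 FPKM in the preeclampsia libraries. Control libraries held both the highest and the lowest value, and the log2 fold change was -0.08 (SE 0.36). It was 0.28 without control library 1, 0.05 without preeclampsia library 2 and 0.01 with the replicate number as a block.

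Of the 6 less abundant proteoglycanase genes, Adamts15, Adamts4, Adamts5 and Adamts9 shared a pattern that Adamts1 did not have. Adamts15 was at 0.11, 0.21 and 1.36 FPKM in the controls and at 0.91, 3.91 and 6.45 FPKM in the preeclampsia libraries. The highest value was 58.6 times the lowest, and the groups overlapped because control library 3 exceeded preeclampsia library 1. Its log2 fold change was 2.82 (SE 1.12), with an unadjusted p of 0.044 and an adjusted p of 0.530 by edgeR. It was 4.57 without control library 3 and 2.19 without preeclampsia library 3. Adamts4, an aggrecanase gene, was at 0.66, 0.41 and 1.59 FPKM and at 0.81, 1.55 and 2.19 FPKM. Adamts5, the other main aggrecanase gene, was at 4.04, 4.02 and 10.7 FPKM and at 4.63, 7.65 and 11.3 FPKM. Adamts9, which encodes a versican-cutting protease made in many embryonic tissues, was at 0.51, 0.32 and 1.08 FPKM and at 0.36, 1.54 and 2.44 FPKM. In all 4 of these genes preeclampsia library 3 was highest, and control library 3 and preeclampsia library 2 took the next 2 places. The 8 cycling markers had their lowest sums in the same 3 libraries, at 72.0 FPKM in control library 3 and 72.3 and 74.3 FPKM in preeclampsia libraries 2 and 3, against 131, 178 and 351 FPKM in control libraries 1 and 2 and preeclampsia library 1. In preeclampsia library 1, which had the highest sum, Adamts15, Adamts4 and Adamts5 were above control libraries 1 and 2, and Adamts9 lay between them. None of the 8 cycling markers was at 0 in any library, and the part of cell cycling in these levels was not tested. Adamts9, Adamts4 and Adamts5 had log2 fold changes of 1.23 (SE 0.76), 0.82 (SE 0.58) and 0.37 (SE 0.49), with adjusted p of 0.701, 0.745 and 0.869.

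Together with Adam9 and Adamts3, 6 of the 32 tested members, or 18.8%, had control library 3 and preeclampsia libraries 2 and 3 as their highest 3, against 8.87% of all tested genes. Preeclampsia libraries 2 and 3 were the highest pair in 8 members, or 25.0%, against 9.98% of all tested genes. These members were Adam8, Adam33, Adamts7, Adamts9, Adamts10, Adamts12, Adamts14 and Adamts15. The libraries of each pattern were picked after the values were seen, so the shares are descriptions. With control library 3 and preeclampsia library 1 left out, 11 of 33 tested members, or 33.3%, had an unadjusted p under 0.05 and a higher mean in the preeclampsia group, against 8.91% of all genes. One of the 11 was Adamts16, which passed the filter only through its counts in preeclampsia libraries 2 and 3, and among the 32 members tested with all libraries the count was 10, or 31.2%. None of the 33 was called in that fit by edgeR, which compared 2 libraries with 2 and called 3 of 15984 genes. The lowest edgeR adjusted p of a member was 0.0517 for Adamts15. Control library 3 was the highest control and preeclampsia library 1 the lowest preeclampsia library in Adamts3, Adamts4, Adamts5, Adamts9 and Adamts15. Leaving out both raises the fold changes of these genes by construction. Members with the same library pattern are not separate evidence, so this share too is only a description.

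**Figure D4:**
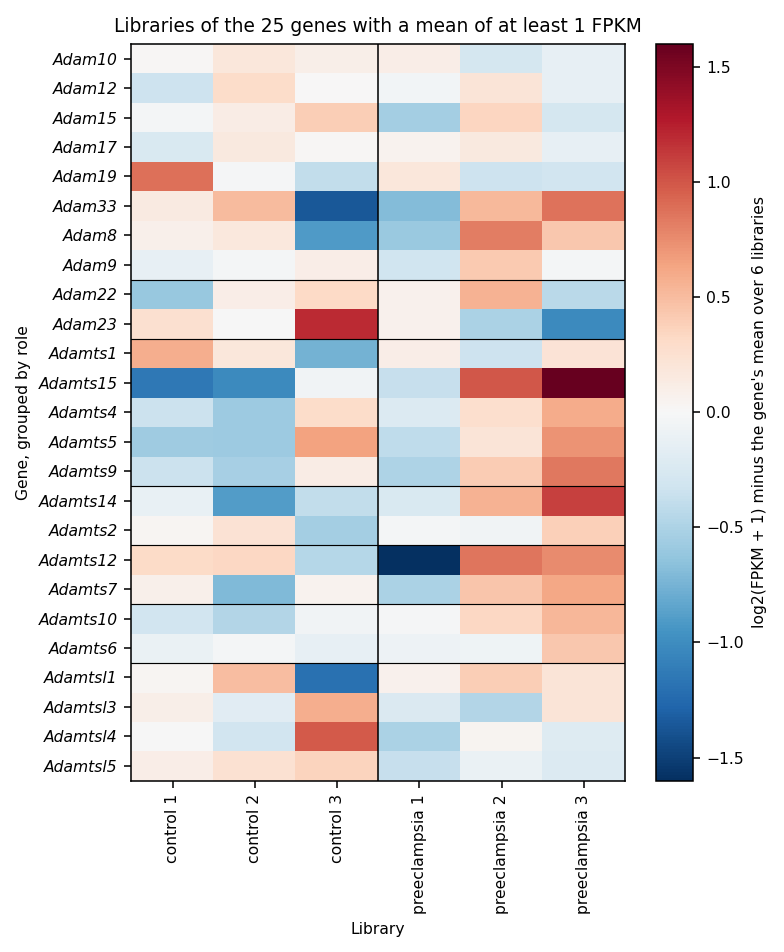
Log2(FPKM + 1) of the 25 genes with a mean of at least 1 FPKM, as the difference from the gene's mean over the 6 libraries (red high, blue low), with genes grouped by role. Adamts15, Adamts4, Adamts5 and Adamts9 are red in preeclampsia libraries 2 and 3. Adamts4 and Adamts5, and more faintly Adamts9, are also red in control library 3. Adam33 and Adam8 are blue in control library 3 and preeclampsia library 1.

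The neighbours Adamts15 and Adamts8, and Adamts1 and Adamts5, differed in level and in the order of their libraries. Adamts13 and Adamtsl2, 59.3 kb apart on chromosome 3, had means of 0.0650 and 0.00167 FPKM, too low for such a comparison. Adamts15 and Adamts8 lie head to head on chromosome 8, 19.1 kb apart with no other gene of the table between them. Adamts8, a proteoglycanase gene known from lung, stayed between 0.19 and 0.44 FPKM, while Adamts15 reached 6.45 FPKM. Adamts1 (chr11:24932227-24941068) and Adamts5 (chr11:25000627-25047205) lie in the same orientation 59.6 kb apart in the table's coordinates, again with no table gene between. In control library 3, Adamts1 was at its lowest and Adamts5 at its second highest value. Adamts20, the last proteoglycanase gene, had 8 counts, all in preeclampsia library 1.

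The procollagen propeptidases ADAMTS2, ADAMTS3 and ADAMTS14 trim fibrillar procollagens, and ADAMTS3 also takes part in activation of the lymphatic growth factor VEGF-C. Adamts14 was at 1.65, 0.56 and 1.20 FPKM in the controls and at 1.43, 3.26 and 5.18 FPKM in the preeclampsia libraries. Preeclampsia libraries 2 and 3 were above all others, and preeclampsia library 1 lay within the controls. The log2 fold change was 1.55 (SE 0.58), with an unadjusted p of 0.036 and an adjusted p of 0.505 by edgeR. Adamts2, the most abundant of the 3, was at 9.45 ± 2.73 and 10.8 ± 2.06 FPKM. Adamts3 ran from 0.14 to 0.80 FPKM, its highest value being that of control library 3.

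Upstream sequence from RefSeq (build GRCr8) was at hand for 28 of the 36 members. The 250 bases before the start of Adamts4, Adamts9 and Adamts14 are shown as examples of genes that were high in preeclampsia libraries 2 and 3. Other members high in these libraries, such as Adam8 and Adamts7, also had windows, which are not shown. Adamts4 was also high in control library 3, at 1.59 FPKM against 1.55 FPKM in preeclampsia library 2. The windows of Adamts10 and Adamtsl5 are shown because the groups of these genes did not overlap. Each window reads 5′ to 3′ on the gene's strand. Capitals mark matches to CCAAT or GGGCGG on either strand, with no overlap between the motifs.
Adamts4: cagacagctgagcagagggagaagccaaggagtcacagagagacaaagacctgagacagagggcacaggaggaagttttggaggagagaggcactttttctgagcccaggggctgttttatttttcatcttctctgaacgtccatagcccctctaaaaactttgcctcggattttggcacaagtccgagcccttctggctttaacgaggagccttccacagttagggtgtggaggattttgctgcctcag
Adamts9: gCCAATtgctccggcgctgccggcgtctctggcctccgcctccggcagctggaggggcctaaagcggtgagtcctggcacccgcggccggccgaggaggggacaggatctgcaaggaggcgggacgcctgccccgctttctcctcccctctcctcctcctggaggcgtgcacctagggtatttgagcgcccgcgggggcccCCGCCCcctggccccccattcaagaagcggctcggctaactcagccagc
Adamts14: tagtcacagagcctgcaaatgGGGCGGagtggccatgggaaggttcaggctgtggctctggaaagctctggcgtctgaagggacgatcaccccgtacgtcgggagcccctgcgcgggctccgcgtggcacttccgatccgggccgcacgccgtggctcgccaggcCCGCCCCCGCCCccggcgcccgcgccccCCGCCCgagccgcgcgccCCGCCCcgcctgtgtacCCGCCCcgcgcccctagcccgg
Adamts10: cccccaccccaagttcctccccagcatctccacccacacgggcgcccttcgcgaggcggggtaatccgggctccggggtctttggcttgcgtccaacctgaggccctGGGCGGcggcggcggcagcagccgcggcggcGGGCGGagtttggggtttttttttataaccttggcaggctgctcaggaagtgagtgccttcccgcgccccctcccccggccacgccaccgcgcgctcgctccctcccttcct
Adamtsl5: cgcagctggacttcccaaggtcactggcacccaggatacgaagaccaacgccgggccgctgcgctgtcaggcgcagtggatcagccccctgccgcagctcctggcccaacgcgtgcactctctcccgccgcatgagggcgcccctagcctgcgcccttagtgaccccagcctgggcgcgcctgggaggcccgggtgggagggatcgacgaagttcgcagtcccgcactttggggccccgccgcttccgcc
They lie at chr13:86202761-86203010, chr4:127019877-127020126, chr20:29762683-29762932, chr7:15033685-15033934 and chr7:10013705-10013954, on the plus strand for Adamts4, Adamts10 and Adamtsl5 and the minus strand for Adamts9 and Adamts14.

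The Adamts4 window differed from the others in base composition. It held 4 CpG dinucleotides and 51.2% G and C, while the Adamts9, Adamts14, Adamts10 and Adamtsl5 windows held 21, 33, 25 and 24 CpG and 70.4% to 76.0% G and C. The median over the 28 members was 18, taking for each gene its richest window, and that over all 33469 windows was 5. The GC box GGGCGG was found 6 times in the Adamts14 window, 2 times in that of Adamts10 and once in that of Adamts9. It was in 18 of 28 members, against 30.5% of all windows. A member counted if any of its windows held the motif, so its share is unlike that over single windows. The CCAAT box was in the Adamts9 window only among the 5 shown, and in 10 of 28 members, against 34.0% of all windows. None of the 5 windows held TATAAA on the gene's strand, or TGANTCA (AP-1) or GGAATG (TEAD) on either strand. These 3 motifs were in 2, 1 and 1 of 28 members, against 8.06%, 6.34% and 12.1% of all windows.

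The remaining ADAMTS proteases include ADAMTS6 and ADAMTS10, which bind fibrillin microfibrils, and ADAMTS7, which like ADAMTS12 can cut cartilage oligomeric matrix protein. Adamts10 was at 12.1, 10.7 and 14.6 FPKM in the controls and at 14.9, 19.4 and 22.5 FPKM in the preeclampsia libraries. The groups did not overlap, though control library 3 and preeclampsia library 1 nearly met. The log2 fold change was 0.63 (SE 0.20), with an unadjusted p of 0.020 and an adjusted p of 0.473 by edgeR. Adamts6 was at 23.4, 24.8 and 23.1 FPKM and at 23.9, 24.1 and 34.8 FPKM, so that only preeclampsia library 3 left the common range. Adamts7 was at 21.1, 11.8 and 20.8 FPKM and at 13.7, 27.4 and 31.2 FPKM, with preeclampsia libraries 2 and 3 highest. The log2 fold changes of Adamts6 and Adamts7 were 0.24 (SE 0.18) and 0.46 (SE 0.38). Adamts12, whose values are given above, had a log2 fold change of 0.27 (SE 0.70), which was -0.11 without preeclampsia library 2 and 0.76 without preeclampsia library 1.

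A few ADAMTS genes were close to the limit of detection. Adamts16 had 58 and 35 counts in preeclampsia libraries 2 and 3 and 0 in the other 4. Adamts13, which encodes the protease of von Willebrand factor, and Adamts17, related to Adamts19 in sequence, did not exceed 0.19 and 0.06 FPKM. No direction is drawn from these low counts.

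The ADAMTSL proteins bind fibrillin and other matrix proteins. Adamtsl5 was at 1.40, 1.64 and 1.86 FPKM in the controls and at 0.73, 1.08 and 0.93 FPKM in the preeclampsia libraries. The groups did not overlap, and its log2 fold change of -0.80 (SE 0.22) had the smallest unadjusted p of all members by edgeR, 0.011. Adamtsl4, in humans a gene for dislocation of the eye lens, was at 28.2, 22.9 and 57.2 FPKM and at 19.7, 29.5 and 24.6 FPKM. Control library 3 stood far above the other 5, which did not separate by group, and the log2 fold change of -0.52 (SE 0.36) was -0.05 without that library. Adamtsl1, also called punctin, was at 20.8, 29.2 and 8.35 FPKM and at 21.5, 27.2 and 23.8 FPKM, with control library 3 lowest, the reverse of Adamtsl4. Its log2 fold change was 0.33 (SE 0.43). Adamtsl3 was at 1.79 ± 0.759 and 1.20 ± 0.533 FPKM, and Adamtsl2 had 8 counts in control library 1 and 0 elsewhere.

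**Figure D5:**
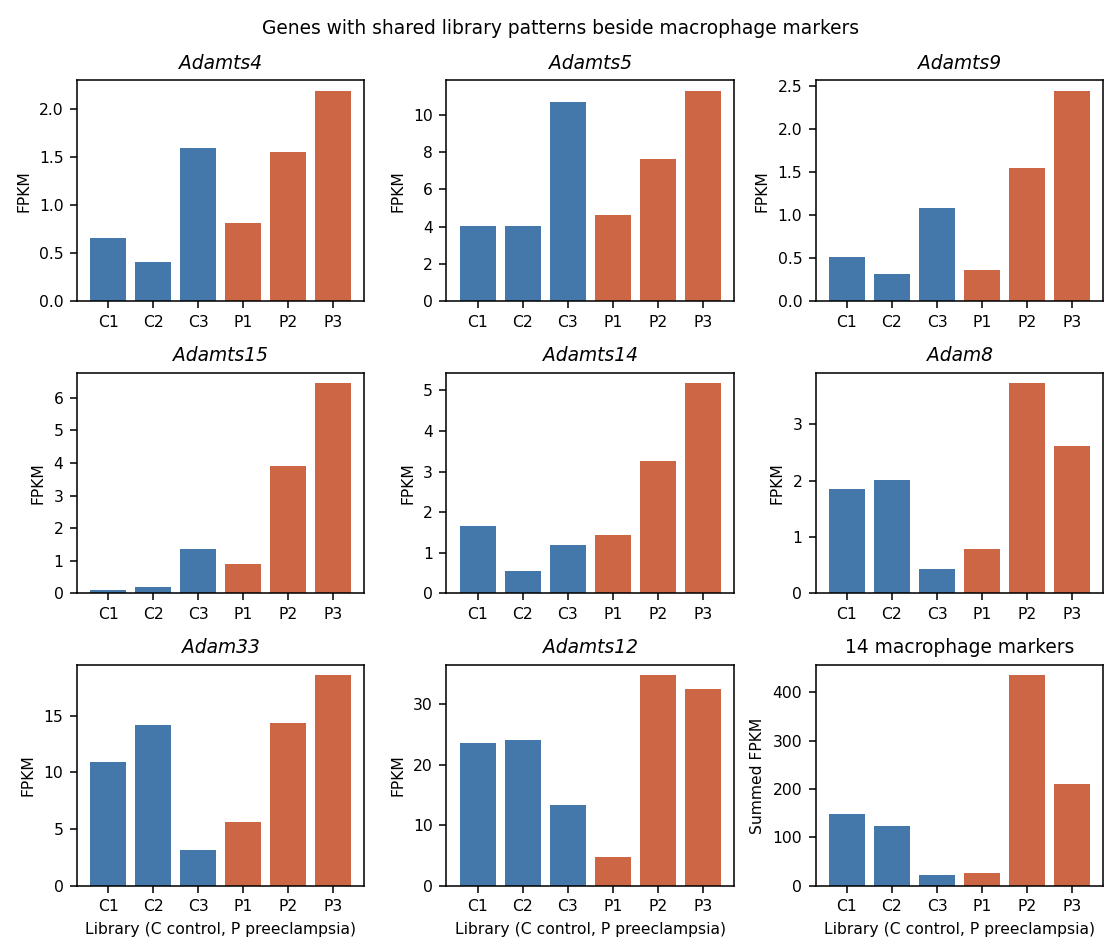
FPKM per library of 8 members and the summed FPKM of 14 macrophage markers, with controls 1 to 3 in blue and preeclampsia 1 to 3 in orange. Adamts4, Adamts5, Adamts9 and Adamts15 are highest in preeclampsia library 3, and Adam8, Adam33 and Adamts12 are lowest in the libraries where the macrophage markers are lowest.

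The genes around these proteases were read from lists of inhibitors, partners and substrates. Of the inhibitors, 5 of 6 were tested and edgeR called 0, with 1 higher at an unadjusted p under 0.05 against 4.13% of all genes, and DESeq2 called 0. Timp1, a secreted inhibitor of metalloproteases, was at 52.9, 94.4 and 109 FPKM in the controls and at 141, 179 and 147 FPKM in the preeclampsia libraries. The groups did not overlap, with a log2 fold change of 0.90 (SE 0.26) and an adjusted p of 0.458. Timp2 was the most abundant inhibitor at 842 ± 54.7 and 832 ± 87.2 FPKM (SD, n = 3 each). Timp3, of the same family, was at 15.4 ± 5.06 and 11.4 ± 7.98 FPKM (log2 fold change -0.42, SE 0.52). Which inhibitor acts on which of these proteases was not tested. The membrane-anchored inhibitor Reck was at 129 ± 71.1 and 176 ± 29.9 FPKM. Of the partners and activators of ADAM10 and ADAM17, 11 of 12 were tested and edgeR called 0, with 0 at an unadjusted p under 0.05 and 0 by DESeq2. Furin, which removes the inhibitory propeptide of many of these proteases, was at 42.0 ± 6.12 and 43.2 ± 9.89 FPKM, and the ADAM17 partner Frmd8 at 19.0 ± 2.70 and 18.3 ± 2.20 FPKM.

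Among surface proteins that ADAMs can shed, 17 of 20 were tested and edgeR called 0, with 4 higher and 2 lower at an unadjusted p under 0.05 against 4.13% and 5.06% of all genes. DESeq2 called Dll1 and Jag1, against 1.71% of all genes. Hbegf, a growth factor precursor cut by ADAM17 and ADAM12, was at 96.2, 99.3 and 75.8 FPKM in the controls and at 71.6, 44.4 and 34.9 FPKM in the preeclampsia libraries (log2 fold change -0.84, SE 0.27). Tgfa, another ADAM17 substrate, was at 13.2, 7.96 and 12.4 FPKM and at 15.6, 17.4 and 23.5 FPKM (0.77, SE 0.26). The groups of neither gene overlapped, and they lay in opposite directions. The Notch ligand gene Jag1 was at 9.37 ± 7.93 and 1.22 ± 0.323 FPKM and Dll1 at 0.0667 ± 0.0764 and 1.07 ± 0.779 FPKM, with DESeq2 adjusted p of 5.9e-04 and 0.0396 and edgeR adjusted p of 0.431 and 0.473. The receptor genes Tnfrsf1a and Il6r had log2 fold changes of 0.65 (SE 0.20) and 1.03 (SE 0.33). The most abundant genes of the list, App and Cd44, were at 351 ± 20.2 and 355 ± 68.2 FPKM and at 334 ± 152 and 193 ± 116 FPKM.

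Of the 14 ADAMTS substrates listed 10 were tested, and edgeR called 0, with 2 higher at an unadjusted p under 0.05 against 4.13% of all genes. The small proteoglycan gene Dcn was at 20.2, 63.9 and 7.19 FPKM in the controls and at 177, 241 and 132 FPKM in the preeclampsia libraries. The groups did not overlap, with a log2 fold change of 2.62 (SE 0.78), an adjusted p of 0.461 by edgeR and of 0.00941 by DESeq2, which called no other substrate, against 1.71% of all genes. Col1a2, a chain of the procollagen that ADAMTS2 and ADAMTS14 trim, was at 963 ± 156 and 1392 ± 81.2 FPKM (0.55, SE 0.19), and Col1a1 at 2482 ± 639 and 3239 ± 917 FPKM. Bgn, a relative of Dcn, was at 1149 ± 431 and 1517 ± 199 FPKM.

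Of the 13 partners of ADAMTS and ADAMTSL proteins edgeR called 0, with 3 higher at an unadjusted p under 0.05 against 4.13% of all genes, and DESeq2 called Fbln1, against 1.71%. Fbln1, which encodes a fibulin that assists ADAMTS1, was at 16.5, 21.2 and 22.2 FPKM in the controls and at 30.0, 44.9 and 194 FPKM in the preeclampsia libraries (log2 fold change 2.20, SE 0.71). Its groups did not overlap, and preeclampsia library 3 was far above the others. The fibrillin gene Fbn2 was at 19.0 ± 10.0 and 42.1 ± 5.17 FPKM (1.15, SE 0.45). Lrp1, the endocytic receptor that clears ADAMTS4 and ADAMTS5, was at 93.3 ± 16.8 and 137 ± 33.6 FPKM (0.59, SE 0.24). The most abundant partners, Fn1 and Ltbp2, were at 2235 ± 528 and 2204 ± 437 FPKM and at 252 ± 24.1 and 268 ± 37.5 FPKM.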

How the data were processed

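The labels' protocols describe poly(A) selection of RNA from 6 libraries, 3 per group by their titles, random priming and adapters with molecular identifiers. The submitters' processing notes list the tools cutadapt (version 1.9), FastQC, HISAT2 (version 2.2.1) and StringTie (version 2.1.6) with no role. No source used here names the genome build, and sequence names were matched to chromosomes through gene identifiers. The single deposited table gives, per the file headers, a count and an FPKM value for each gene in each library. Between 35.1% and 38.0% of the counts from 1 to 15 in a library were multiples of 4, so low counts may not be single reads.

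The main test was edgeR 4.0.16 in R 4.3.3 (quasi-likelihood, filterByExpr, TMM), on the counts of all genes with group as sole covariate. P-values were adjusted by Benjamini-Hochberg and a gene counted as called below an adjusted p of 0.05. The SE of a log2 fold change is its size over the root of the F statistic. The common biological coefficient of variation between libraries was 0.418. The median SE was 0.429 over the members, against 0.263 over all genes, and it was widest for members with few counts, such as Adamts17 and Adamts13. No pair of libraries was a duplicate (smallest chi-square per degree of freedom 140). The alternatives tried were RLE scaling, no count filter, DESeq2 1.42.0, the replicate number used as a block, single libraries left out, control library 3 and preeclampsia library 1 both left out, and limma 3.58.1 on log2(FPKM + pseudocount). Limma used pseudocounts of 1, 0.5 and 0.1 with a mean of at least 1 FPKM, and 1 with no filter. Its fold changes understate the change of low genes. The scripts were tested on simulated data.

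Values in every library are given for members with an unadjusted p under 0.05, for those with a group mean of at least 1 FPKM and no overlap, and for the 10 most abundant and 3 most variable, 16 in all. Adam8, Adamts4, Adamts5 and Adamts9 were added after their values were seen. From each list of related genes the text names the 2 most abundant and those with an unadjusted p under 0.05. Timp3 was added to these after its values were seen. The members and the lists were chosen with earlier results of these data known. Motifs were searched in 33469 RefSeq upstream windows.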

Additional observations from a re-analysis of the deposited data

How the results depend on the processing

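No alternative called a member: the count of members past an adjusted p of 0.05 stayed 0 in edgeR, DESeq2 and limma under all 15 alternatives. Over all genes, no edgeR or limma alternative called more than 3, and DESeq2 called 302. A count of 0 members therefore says little about how stable their levels are. The count of members with a higher mean and an unadjusted p under 0.05 was 3, against 4.13% of all genes. It ran from 0 to 7 with single libraries left out, against 2.52% to 6.19% of all genes. With control library 3 and preeclampsia library 1 both left out it was 11, Adamts16 included, against 8.91% of all genes. That omission raises the fold change by construction where control library 3 is the highest control and preeclampsia library 1 the lowest preeclampsia library. The lower count was 2, against 5.06% of all genes, and ran from 1 to 2 with single libraries left out, against 3.39% to 6.14%. It was 1 by limma on log2(FPKM + 1) with and without the filter, against 5.56% and 4.42% of all genes. The ADAMTS median of 0.36 ran from 0.30 to 0.71 with single libraries left out. The ADAMTSL median of -0.54 ran from -0.78 to -0.12 with single libraries left out and was -0.02 without both libraries. The log2 ratio of summed ADAMTS levels was 0.09 and ran from -0.11 to 0.31, and was 0.40 without Adamts1 (94.0 ± 4.52 against 124 ± 44.4 FPKM, exact p = 0.40). That of ADAMTSL went from -0.21 to 0.20 without Adamtsl4.

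Of the 16 genes given in full, 9 kept their direction in every alternative. The fold change of Adamts12 was -0.16, -0.14 and -0.12 by limma with pseudocounts of 0.1, 0.5 and 1, and -0.12 without the filter. With the replicate block it was -0.04 and that of Adamts1 0.01. That of Adamtsl4 was 0.10 without both libraries. With single libraries left out, Adam12 ran from -0.09 to 0.20, Adam19 from -0.65 to 0.11, Adam9 from -0.15 to 0.29, Adamts1 from -0.38 to 0.28, Adamts12 from -0.11 to 0.76 and Adamtsl1 from -0.04 to 0.73. The cause of these shifts was not tested. Libraries with the same number did not deviate together (correlations 0.05, 0.04 and 0.01), so the block only shares a number. It moved the counts of members at an unadjusted p under 0.05 from 3 higher and 2 lower to 2 and 2. With the block, 3.32% of all genes were higher and 4.26% lower at that threshold. Few counts limit what can be said of the genes under 1 FPKM. No group had the 4 libraries set here as the least for a test of outlying values, so none was run.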
